A study of Mus musculus with 6 samples.

Results

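The 10 genes described here are 6 ligands of the fibroblast growth factor (FGF) family, Fgf2, Fgf1, Fgf7, Fgf10, Fgf18 and Fgf22, and the 4 receptor genes Fgfr1, Fgfr2, Fgfr3 and Fgfr4. They were chosen by symbol, among the 20130 genes that the array's accessions named, and all 10 were among the 16411 genes kept for testing. They were read by 17 probes, and each of the 17 was well above background on all 6 arrays. The tissue was dorsal skin of male mice of strain C57/BL6, in which 4 full-thickness wounds per mouse were cut with a 4 mm punch. Wounds were taken on day 3 with a 6 mm punch, so each sample held the wound and a rim of the skin around it. The first group was 3 arrays of wounds from wild-type (WT) mice. The second was 3 arrays of wounds from mice of genotype FoxO1 +/-, heterozygous for the gene of the forkhead transcription factor FoxO1. No unwounded skin was analysed here, so the values describe the wound and not its response to injury. The sources used here give neither the animals' age nor how the allele was made, nor how the wounds of a mouse were pooled.

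FGF ligands are secreted proteins that bind heparan sulphate on cell surfaces and in matrix, and with it bind and pair receptor tyrosine kinases. The receptors signal through the adaptor Frs2 to the Ras and MAP kinase cascade, which switches on Ets family transcription factors and its own inhibitors of the Sprouty and Dusp families. In healing skin, Fgf7 and Fgf10 are made by mesenchymal cells and act on keratinocytes through the epithelial splice form of Fgfr2. Fgf2 acts on endothelial cells and fibroblasts and has no classical signal peptide. Fgf18 is known in skin from the hair follicle.

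Each array is a 1-colour measurement of labelled copies of the tissue's RNA. Levels below are log2 signals relative to the 75th percentile of their own array, so 0 is the signal of a probe at that percentile. Probes bind with unlike strength, so a level is set only against the same probe on other arrays, and the genes are not ranked by amount of mRNA. The share of spots well above background was 64.3% on FoxO1 +/- replicate 3 and 70.1% to 71.9% on the other 5 arrays. All 6 arrays lay on 1 slide, with the 3 WT arrays and FoxO1 +/- replicate 1 in slide row 1 and the other 2 in row 2. All 8 keratinocyte and all 8 fibroblast markers listed were kept in these samples. Foxo1 itself was lower in all 3 FoxO1 +/- wounds on both of its probes, by log2 differences of -0.48 (SE 0.15) and -0.89 (SE 0.14), with limma adjusted p-values of 0.547 and 0.190 over all probes. Whether either probe reads the altered part of the gene is unknown, so they are a limited check of genotype.

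The genes lie on chromosomes 3 (Fgf2), 18 (Fgf1), 2 (Fgf7), 13 (Fgf10 and Fgfr4), 11 (Fgf18), 10 (Fgf22), 8 (Fgfr1), 7 (Fgfr2) and 5 (Fgfr3). Foxo1 is also on chromosome 3, and its start lies 14.9 Mb from that of Fgf2. Promoter sequences from RefSeq (GRCm38.p6) were matched for 8 of the 10 genes, with 9 entries, 2 of them for Fgfr3. The 250 bases before the annotated start were searched on both strands for GTAAACA, a consensus bound by FoxO factors, for the GC box GGGCGG and for TATAAA. A FoxO consensus was found in 1 of the 9 entries, that of Fgf10, against 3.17% of 32851 promoters. A GC box was found in 7 of the 9, against 32.7% of all promoters, and TATAAA in 0, against 12.4%. A match is only a match of letters, and none of these data measure binding. The upstream bases of 3 ligands are shown: Fgf2 and Fgf18 because their 2 genotypes differed most, and Fgf10 for its consensus. Only bases before the first annotated transcript start are printed, which for Fgf2 leaves 74, and capitals mark the reverse complement of a GC box in Fgf18 and of the FoxO consensus in Fgf10, whose GC box is left in lower case. The GC box of Fgf2 lies after the stretch printed.
Fgf2, chr3:37348403-37348476, plus strand: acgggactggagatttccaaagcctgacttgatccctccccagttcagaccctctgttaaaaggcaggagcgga
Fgf18, chr11:33147401-33147650, minus strand: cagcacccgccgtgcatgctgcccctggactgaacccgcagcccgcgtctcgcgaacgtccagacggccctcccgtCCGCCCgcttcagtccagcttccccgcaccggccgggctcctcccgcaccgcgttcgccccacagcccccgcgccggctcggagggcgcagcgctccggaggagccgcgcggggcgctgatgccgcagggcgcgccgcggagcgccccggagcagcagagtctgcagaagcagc
Fgf10, chr13:118714449-118714698, plus strand: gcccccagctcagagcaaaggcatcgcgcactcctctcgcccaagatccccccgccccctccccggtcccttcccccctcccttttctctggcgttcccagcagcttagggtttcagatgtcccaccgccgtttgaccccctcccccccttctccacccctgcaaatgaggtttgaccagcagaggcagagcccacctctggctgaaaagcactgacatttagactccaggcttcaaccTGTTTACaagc

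The comparison of FoxO1 +/- with WT wounds asks whether heterozygosity for Foxo1 goes with a difference in the FGF genes at the wound. Fgf2 was 1.80-fold higher in FoxO1 +/- wounds, Fgf18 was at 75.4% of its WT level, and the other 8 genes lay between 82.8% and 130% of WT. None of the 10 passed limma's adjusted p of 0.05 over all genes, a threshold that 1 gene, or 0.00609% of all genes, passed. At an unadjusted limma p under 0.05 there were 2 of the 10, Fgf2 higher and Fgf18 lower, against 6.25% of all genes, of which 3.42% were higher and 2.83% lower. The 2 genotypes did not overlap for 3 of the 10, against 11.5% of all genes. Fgf2 and Fgfr1 were the 2 higher ones, against 6.9% of all genes, and Fgf18 the lower one, against 4.56%. Of the 17 probes 0 passed limma's adjusted threshold over all probes, against 0.0237% of the 37902 kept probes. Limma's unadjusted p was below 0.05 for 5 of the 17, against 6.71% of kept probes, with 1 higher (against 3.97%) and 4 lower (against 2.74%). The genotypes did not overlap for 6 of the 17, against 12.8%, with 2 higher (against 8.28%) and 4 lower (against 4.57%). Several of these probes read the same gene and are not independent. The median size of the log2 difference was 0.17 over the 10 genes and 0.086 over all genes. The 10 genes also varied more between wounds of a genotype, with a median SD of 0.26 in WT and 0.14 in FoxO1 +/- wounds, against 0.13 and 0.12 over all genes.

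**Figure D1:**
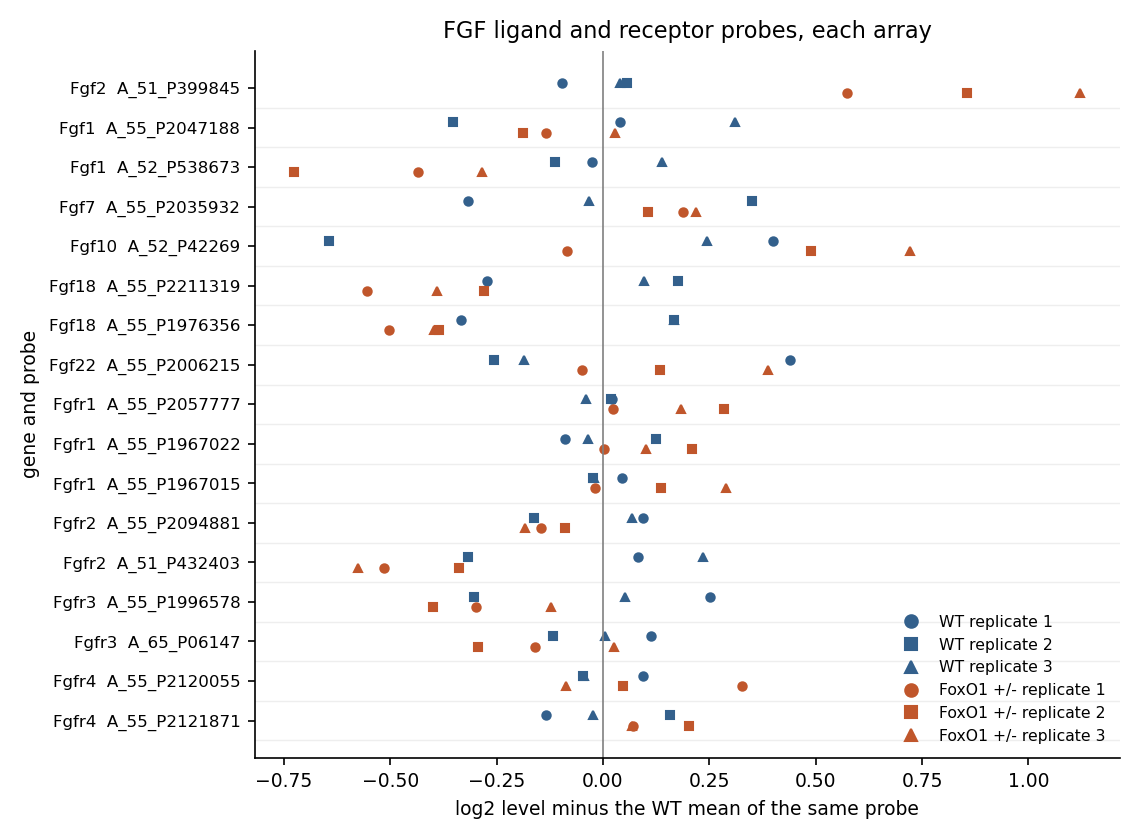
Log2 level of each of the 17 probes on each array, as the distance from that probe's WT mean (x axis). Rows are gene and probe, blue is WT, orange is FoxO1 +/-, and the marker shape is the replicate. The 3 FoxO1 +/- arrays lie to the right of all WT arrays for Fgf2 and to the left for both Fgf18 probes.

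Among the ligands, Fgf2 showed the largest difference of the 10 genes. Its level was -4.08, -3.93 and -3.95 in WT replicates 1 to 3, and -3.41, -3.13 and -2.86 in FoxO1 +/- replicates 1 to 3. All 3 FoxO1 +/- wounds were therefore above all 3 WT wounds, and FoxO1 +/- replicate 1 was the nearest to them. The means were -3.99 ± 0.083 (SD, n = 3) and -3.14 ± 0.275 (SD, n = 3), a log2 difference of 0.85 (SE 0.15, 95% interval 0.49 to 1.21, limma adjusted p 0.369). Its unadjusted limma p of 0.00113 was the 44th smallest of the 16411 genes. The exact permutation p was 0.1, the smallest that 3 arrays against 3 can give.

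The Fgf2 probe was printed 10 times on each array, so its level rests on 8 to 10 unflagged spots per array. The standard deviation between spots of 1 array was 0.065 to 0.16, and repeated spots of an array measure the array and not the animal. The 27 WT spots lay between -4.34 and -3.75 and the 27 FoxO1 +/- spots between -3.65 and -2.57, so no WT spot reached the level of a FoxO1 +/- spot. Before scaling, the processed signals of Fgf2 were 69.3, 75.4 and 84.2 in WT wounds and 102.7, 127.6 and 123.4 in FoxO1 +/- wounds, and they did not overlap either. The probe was thus dim, but above background on every array. Among 1143 other genes within 0.5 of its mean level, the median log2 difference was -0.0031, and 1.84% differed upward by as much as Fgf2.

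**Figure D2:**
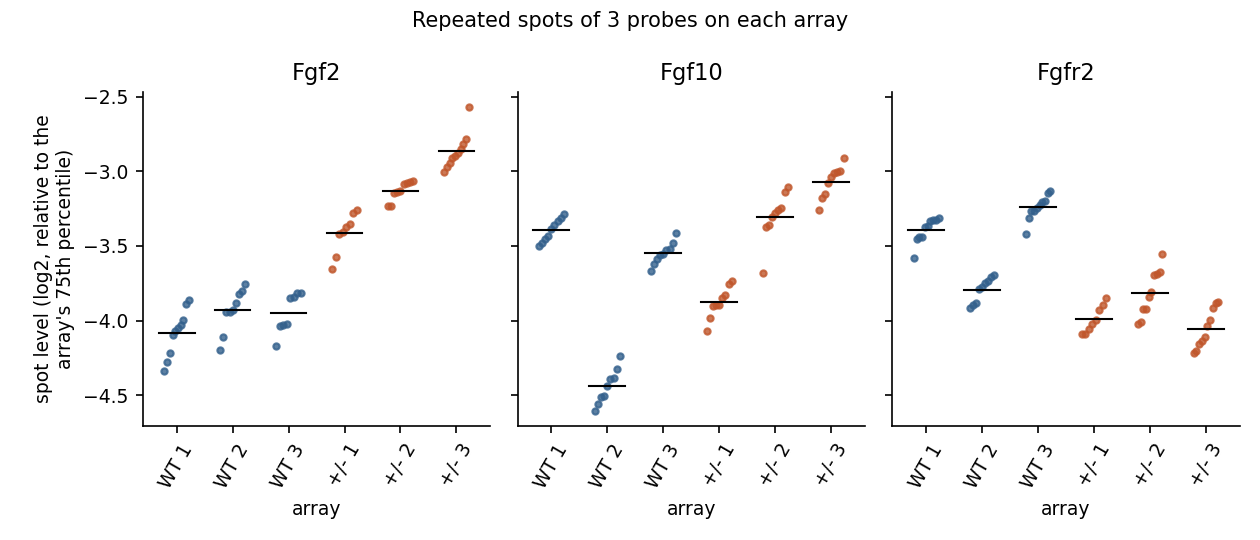
Level of every unflagged spot (y axis, log2 relative to the array's 75th percentile) of the 3 member probes printed 10 times, on each array (x axis), with the array's mean as a line. Blue is WT and orange is FoxO1 +/-. The Fgf2 spots separate by genotype, whereas Fgf10 is lowest on WT replicate 2 and the Fgfr2 spots of WT replicate 2 overlap those of FoxO1 +/- wounds.

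Position on the slide moved with the Fgf2 level, since the 2 FoxO1 +/- arrays of slide row 2 had the higher values. Within row 1, where FoxO1 +/- replicate 1 stood alone against 3 WT arrays, the difference was 0.57 (SE 0.13), and with slide row as a block it was also 0.57 (SE 0.15). In both fits the spread of the lone array is taken from the rest. With single arrays left out the Fgf2 difference ran from 0.71 without FoxO1 +/- replicate 3 to 0.99 without FoxO1 +/- replicate 1.

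Most of the listed markers of several other cell types also had higher mean levels in FoxO1 +/- wounds. All 8 adipocyte markers were higher in FoxO1 +/- wounds, with a list mean of 2.92 to 3.96 on WT and 4.10 to 4.50 on FoxO1 +/- arrays. Among the WT arrays that mean was highest on replicate 1 and lowest on replicate 2. Fgf2 was at -4.08 on WT replicate 1, and almost equal on WT replicates 2 (-3.93) and 3 (-3.95). On FoxO1 +/- replicates 1 to 3 the adipocyte mean was 4.10, 4.39 and 4.50. Fgf2 rose in the same order there, at -3.41, -3.13 and -2.86. An order of 3 arrays per genotype cannot decide whether Fgf2 goes with the adipocyte list. All 8 endothelial markers were higher too, with list means that overlapped, at 1.00 to 1.21 and 1.19 to 1.36. Fibroblast markers were higher for 6 of 8, and their list means overlapped, at 6.36 to 6.41 and 6.35 to 6.48. All 7 kept macrophage markers were higher, with list means of 4.41 to 4.59 and 4.61 to 4.72. Limma's unadjusted p was under 0.05 for 4 of 8 adipocyte, 1 of 8 endothelial, 0 of 8 fibroblast and 1 of 7 macrophage markers, all higher. Over all genes 3.42% were higher at that threshold, and none of these markers passed the adjusted threshold. Of other immune cell markers, 5 of 6 mast cell and 5 of 7 neutrophil markers were higher and 6 of 8 T cell markers lower. The part of these cells in the Fgf2 difference was not tested, and in bulk tissue more cells of a type and more RNA per cell cannot be told apart.

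Nudt6 is a gene that overlaps Fgf2 in the antisense direction. Its brighter probe was at 0.62, 0.54 and 0.68 in WT and 0.64, 0.67 and 0.64 in FoxO1 +/- wounds. The Nudt6 genotypes overlapped and differed by 0.034 on the log2 scale (SE 0.070, 95% interval -0.14 to 0.21). Its other probe differed by 0.062 (SE 0.11). Of 10 listed genes near Fgf2 on chromosome 3, 9 were kept, Nudt6 among them, and 0 had an unadjusted limma p under 0.05, against 6.25% of all genes, which for so few genes says little. Their median log2 difference was 0.034, against 0.011 over all genes. Those with the smallest p-values were Cetn4 (0.18, SE 0.084), Fat4 (0.26, SE 0.15) and Il2 (0.52, SE 0.44).

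The other broadly acting ligand, Fgf1, gave unlike values on its 2 probes. On the brighter probe it was at 0.44, 0.05 and 0.71 in WT and 0.27, 0.21 and 0.43 in FoxO1 +/- wounds, so the genotypes overlapped, with a log2 difference of -0.097 (SE 0.18, 95% interval -0.52 to 0.33). On the dimmer probe it was at -4.44, -4.53 and -4.27 in WT and -4.85, -5.14 and -4.70 in FoxO1 +/- wounds. There all FoxO1 +/- wounds were lower, by -0.48 (SE 0.14), with a limma adjusted p of 0.513 over all probes. The sources used here do not say which transcripts each probe reads. The brighter probe's difference turned to 0.058 without WT replicate 3.

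Among the ligands of the Fgf7 subfamily, which signal to epithelium, the genotypes overlapped for all 3 genes. Fgf7, also known as keratinocyte growth factor, was at 1.37, 2.04 and 1.65 in WT and 1.87, 1.79 and 1.90 in FoxO1 +/- wounds. Its log2 difference was 0.17 (SE 0.17, 95% interval -0.25 to 0.59), and the WT wounds spread over more than the FoxO1 +/- wounds, with SDs of 0.34 and 0.058 (n = 3 each). WT replicate 2 was the highest of the 6, and without it the difference was 0.35, with an unadjusted limma p of 0.0257. Without WT replicate 1, the lowest, the Fgf7 difference was 0.012.

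Fgf10, which shares the epithelial receptor with Fgf7, was at -3.39, -4.44 and -3.55 in WT and -3.88, -3.30 and -3.07 in FoxO1 +/- wounds. WT replicate 2 was the lowest, more than 0.5 below any other array. The log2 difference was 0.38 (SE 0.33, 95% interval -0.44 to 1.19), and 0.053 without WT replicate 2. Its 9 unflagged spots per array had SDs of 0.075 to 0.17. Within slide row 1 the difference was -0.084.

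Fgf22, another member of the Fgf7 subfamily, was at -3.12, -3.82 and -3.74 in WT and -3.61, -3.43 and -3.17 in FoxO1 +/- wounds. The log2 difference was 0.16 (SE 0.22, 95% interval -0.37 to 0.68). WT replicate 1 was the highest of the 6, and without it the difference was 0.38, with an unadjusted limma p of 0.0493. Without WT replicate 2, the lowest, it was 0.029. Within slide row 1 it was -0.050.

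Fgf18 was the one ligand whose 2 probes both lay lower in all FoxO1 +/- wounds. On the brighter probe it was at 1.67, 2.12 and 2.04 in WT and 1.39, 1.67 and 1.55 in FoxO1 +/- wounds. The genotypes were separated by a narrow gap, between WT replicate 1 at 1.672 and FoxO1 +/- replicate 2 at 1.666. The log2 difference was -0.41 (SE 0.14, 95% interval -0.76 to -0.059), with an unadjusted limma p of 0.0287 and a limma adjusted p of 0.748. On the other probe the levels were 0.83, 1.33 and 1.33 in WT and 0.66, 0.78 and 0.77 in FoxO1 +/- wounds, and they differed by -0.43 on the log2 scale (SE 0.15). With 1 array left out the brighter probe's difference was between -0.54 and -0.32. Limma's unadjusted p was then 0.0829 and 0.0864 without WT replicates 2 and 3, and 0.0896 and 0.0608 without FoxO1 +/- replicates 1 and 3. Within slide row 1 the difference was -0.55 (SE 0.22).

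**Figure D3:**
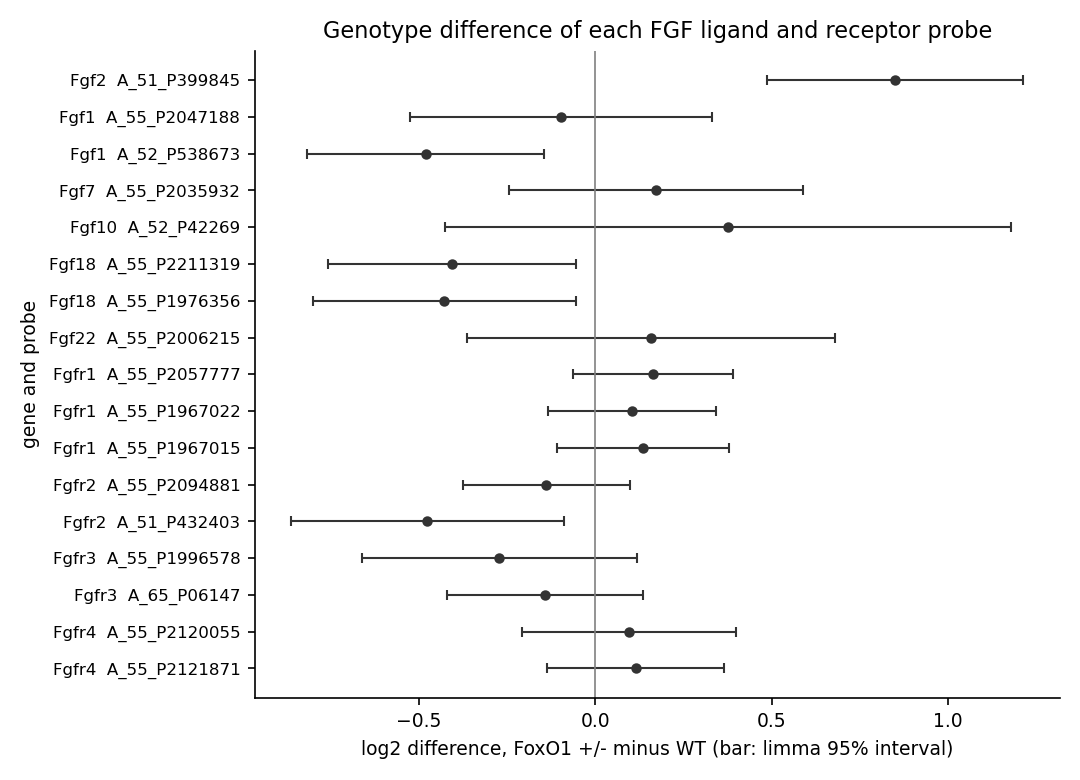
Log2 difference, FoxO1 +/- minus WT (x axis), of each of the 17 probes (rows), with limma's 95% interval. The intervals of Fgf2, both Fgf18 probes, the dimmer Fgf1 probe and the dimmer Fgfr2 probe exclude 0 before adjustment for the number of probes tested.

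The receptors were read by 9 of the 17 probes. Fgfr1, the main receptor of mesenchymal and endothelial cells, was at 4.23, 4.23 and 4.17 in WT and 4.24, 4.50 and 4.40 in FoxO1 +/- wounds on its brightest probe. The genotypes did not overlap, but WT replicate 1 at 4.234 and FoxO1 +/- replicate 1 at 4.237 were almost equal. They overlapped with quantile normalization, with median scaling, with normexp background correction, with the mean of a gene's probes and in the authors' rounded values. The log2 difference was 0.16 (SE 0.088, 95% interval -0.052 to 0.38, limma adjusted p 0.851). Its other 2 probes differed by 0.14 (SE 0.10) and 0.10 (SE 0.098). All 3 probes had a higher mean in FoxO1 +/- wounds, and none passed an unadjusted p of 0.05. On the brightest probe the Fgfr1 difference was 0.023 within slide row 1 and with slide row as a block. It ran from 0.10 without FoxO1 +/- replicate 2 to 0.23 without FoxO1 +/- replicate 1, where the unadjusted limma p was 0.0408.

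Fgfr2, whose epithelial splice form receives Fgf7 and Fgf10, was read by 2 probes of 1 accession. The brighter one was at -1.48, -1.74 and -1.50 in WT and -1.72, -1.66 and -1.76 in FoxO1 +/- wounds. WT replicate 2 lay among the FoxO1 +/- wounds, and the log2 difference was -0.14 (SE 0.093, 95% interval -0.37 to 0.086). This Fgfr2 difference was -0.22 when WT replicate 2 was left out and -0.092 when WT replicate 1 was. The dimmer probe, printed 10 times, was at -3.39, -3.79 and -3.24 in WT and -3.99, -3.81 and -4.05 in FoxO1 +/- wounds. On it the array means did not overlap, by 0.02 between WT replicate 2 and FoxO1 +/- replicate 2, and the log2 difference was -0.48 (SE 0.16, limma adjusted p 0.611 over all probes). The sources used here do not say which splice forms either probe reads.

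Fgfr3, an epidermal receptor, was at 1.85, 1.30 and 1.66 in WT and 1.31, 1.20 and 1.48 in FoxO1 +/- wounds. The groups overlapped through WT replicate 2, with a log2 difference of -0.27 (SE 0.16, 95% interval -0.66 to 0.12), and of -0.14 (SE 0.11) on its dimmer probe. Without WT replicate 2 the first was -0.42, with an unadjusted limma p of 0.0159, and without WT replicate 1 it was -0.15, with a p of 0.370. Fgfr4 was at 0.22, 0.08 and 0.09 in WT and 0.46, 0.18 and 0.05 in FoxO1 +/- wounds. Its log2 difference was 0.096 (SE 0.12, 95% interval -0.20 to 0.39), and 0.11 (SE 0.10) on the other probe. The first was 0.33 within slide row 1 and -0.020 without FoxO1 +/- replicate 1.

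WT replicate 2 was the array on which the members' calls leaned most. Without it limma's unadjusted p was below 0.05 for 4 of the 10 genes, Fgf2, Fgf7, Fgfr2 and Fgfr3, and no longer for Fgf18. The count over all genes was also higher without it, at 1493 of 16411 against 1026. It was also the WT array with the lowest adipocyte list mean (2.92 against 3.53 and 3.96). It had the lowest list mean of keratinocyte markers among the WT arrays as well (4.88 against 5.06 and 5.24).

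Most of the listed markers of skin epithelium had lower mean levels in FoxO1 +/- wounds, as did Fgf1, Fgf18, Fgfr2 and Fgfr3. Of 8 keratinocyte markers 7 were lower in FoxO1 +/- wounds. Their list means overlapped, at 4.88 to 5.24 on WT and 4.62 to 5.03 on FoxO1 +/- arrays. Of 7 sebaceous gland markers 6 were lower, with list means of 2.13 to 2.91 and 1.77 to 1.92. All 9 kept hair follicle markers were lower, with list means of -2.43 to 0.53 and -3.08 to -2.50, the highest on WT replicate 1. Limma's unadjusted p was under 0.05 for 0 of 8 keratinocyte, 3 of 7 sebaceous gland and 1 of 9 hair follicle markers, all lower. Over all genes 2.83% were lower at that threshold, and none of these markers passed the adjusted threshold. Among the WT arrays, Fgf18 was highest on replicate 2, where all 3 list means had their lowest WT value. It was lowest on WT replicate 1, where the keratinocyte and hair follicle means were highest. The keratinocyte mean was 5.24, 4.88 and 5.06 on WT and 4.87, 4.62 and 5.03 on FoxO1 +/- replicates 1 to 3. Fgfr3 had the same order in both genotypes, at 1.85, 1.30 and 1.66 and at 1.31, 1.20 and 1.48. On their brighter probes Fgfr2 had that order in WT wounds only and Fgf1 in FoxO1 +/- wounds only. An order of 3 arrays per genotype cannot decide whether any of these genes goes with these lists. The part of these cells in the Fgf1, Fgf18, Fgfr2 and Fgfr3 values was not tested.

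The wider FGF pathway showed values near those of all genes. Of 82 genes in 5 lists, 74 were kept, with a median log2 difference of 0.0051. One of them, or 1.35%, had an unadjusted limma p under 0.05, and the genotypes did not overlap for 6, or 8.11%, against 6.25% and 11.5% of all genes. None passed the adjusted threshold.

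Of 16 other FGF family genes 11 were kept, with a median of -0.015 and 0 with an unadjusted limma p under 0.05. The smallest p-values were those of Fgf9 (0.67, SE 0.30), Fgf14 (0.13, SE 0.10) and the phosphate-regulating hormone Fgf23 (-0.22, SE 0.20). With the mean of its probes the Fgf23 value was -0.66 (SE 0.47). Fgf9 was at -2.01, -3.15 and -2.30 in WT and -2.07, -1.68 and -1.69 in FoxO1 +/- wounds, and WT replicate 1 lay above FoxO1 +/- replicate 1. Without WT replicate 2, again the lowest, the Fgf9 difference was 0.34.

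Of 19 co-receptors and binding proteins 18 were kept, with a median of 0.039 and 1 with an unadjusted limma p under 0.05. This was Fgfrl1, which encodes a receptor without the tyrosine kinase domain. It was at 2.25, 1.63 and 2.01 in WT and 2.29, 2.44 and 2.38 in FoxO1 +/- wounds, which did not overlap. Its log2 difference was 0.41 (SE 0.16, limma adjusted p 0.798). The Fgfrl1 difference was 0.24 when WT replicate 2 was left out and 0.55 when WT replicate 1 was. The unadjusted p of Fgfrl1 stayed under 0.05 in 1 of the 6 fits with an array left out, the one without WT replicate 1. Hspg2, the gene of the basement membrane heparan sulphate proteoglycan perlecan, differed by 0.22 (SE 0.098) and Fgfbp3 by -0.21 (SE 0.096). The 13 heparan sulphate enzymes were all kept and had a median of -0.020. Glce (-0.16, SE 0.087), Ndst1 (-0.11, SE 0.071) and Hs2st1 (0.23, SE 0.15) had the smallest p-values. The Ndst1 value was 0.040 with the mean of its probes.

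Downstream of the receptors, 16 of 17 adaptor and kinase genes were kept, and they differed by -0.17 to 0.11 with a median of -0.0056. The smallest p-values were those of the phospholipase gene Plcg1 (-0.17, SE 0.090) and the adaptor genes Gab1 (-0.11, SE 0.075) and Grb2 (0.11, SE 0.078). The Plcg1 value was -0.037 with normexp background correction and -0.063 with the mean of its probes. Of 17 feedback inhibitors and response genes, which FGF signalling switches on in many tissues, 16 were kept, 8 higher and 8 lower, with a median of -0.0082. The Ets factor gene Etv4 was at 1.14, 0.72 and 0.81 in WT and 0.60, 0.48 and 0.70 in FoxO1 +/- wounds. It did not overlap, and differed by -0.29 (SE 0.13, limma adjusted p 0.826). With WT replicate 1 left out the Etv4 difference was -0.17. The inhibitor gene Spry2 differed by -0.19 (SE 0.11) and the Ets factor gene Etv1 by 0.19 (SE 0.11). None of the 16 had an unadjusted limma p under 0.05.

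**Figure D4:**
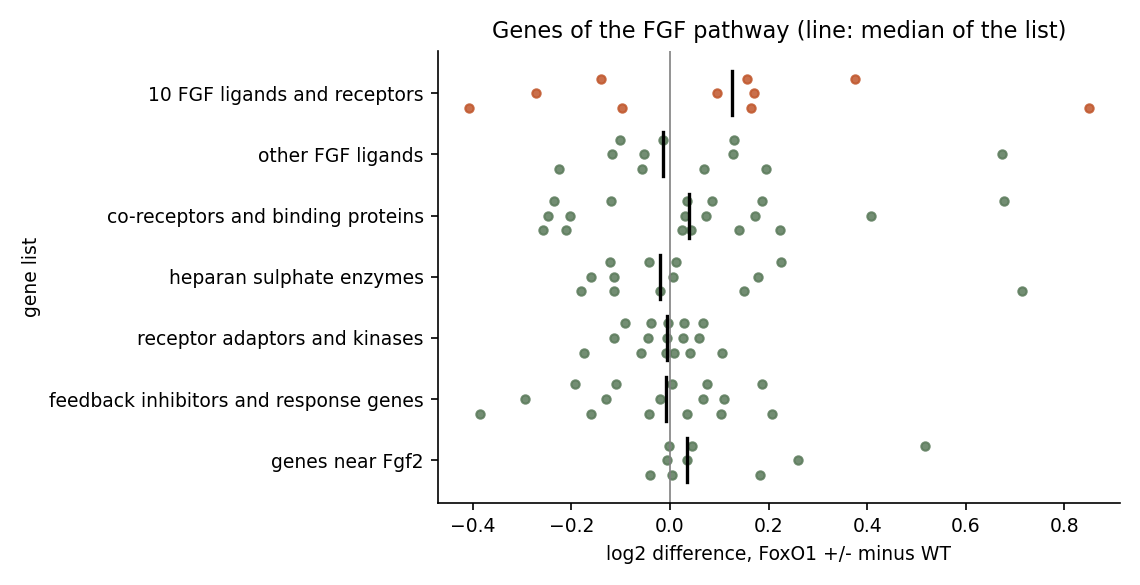
Log2 difference, FoxO1 +/- minus WT (x axis), of each kept gene in the 10 FGF ligand and receptor genes, 5 pathway lists and the genes near Fgf2 (rows). Points are spread vertically for clarity and the black line is the list's median, which lies between -0.020 and 0.039 for these 6 lists and at 0.13 for the 10 genes.

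The 5 genes whose levels over the 6 arrays were most like those of Fgf2 were Ankef1, Rbp4, Cd1d1, Cwc22 and Pip4p2. Likeness was the root mean square difference between levels centred on each gene's own mean, and it was 0.10, 0.12, 0.13, 0.13 and 0.14 for these genes. Rbp4, which encodes a retinol carrier of blood plasma, was at 2.81, 3.00 and 2.93 in WT and 3.46, 3.78 and 3.72 in FoxO1 +/- wounds. Its log2 difference was 0.74 (SE 0.11, limma adjusted p 0.310). Cd1d1, an antigen-presenting molecule for lipids, differed by 0.77 (SE 0.12). The choice by likeness selects genes higher in FoxO1 +/- wounds, so their differences are a description. Among the other 9 FGF genes Fgfr1 was the most like Fgf2, at 0.37, and 1120 genes of the whole table were closer to Fgf2 than it was.

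**Figure D5:**
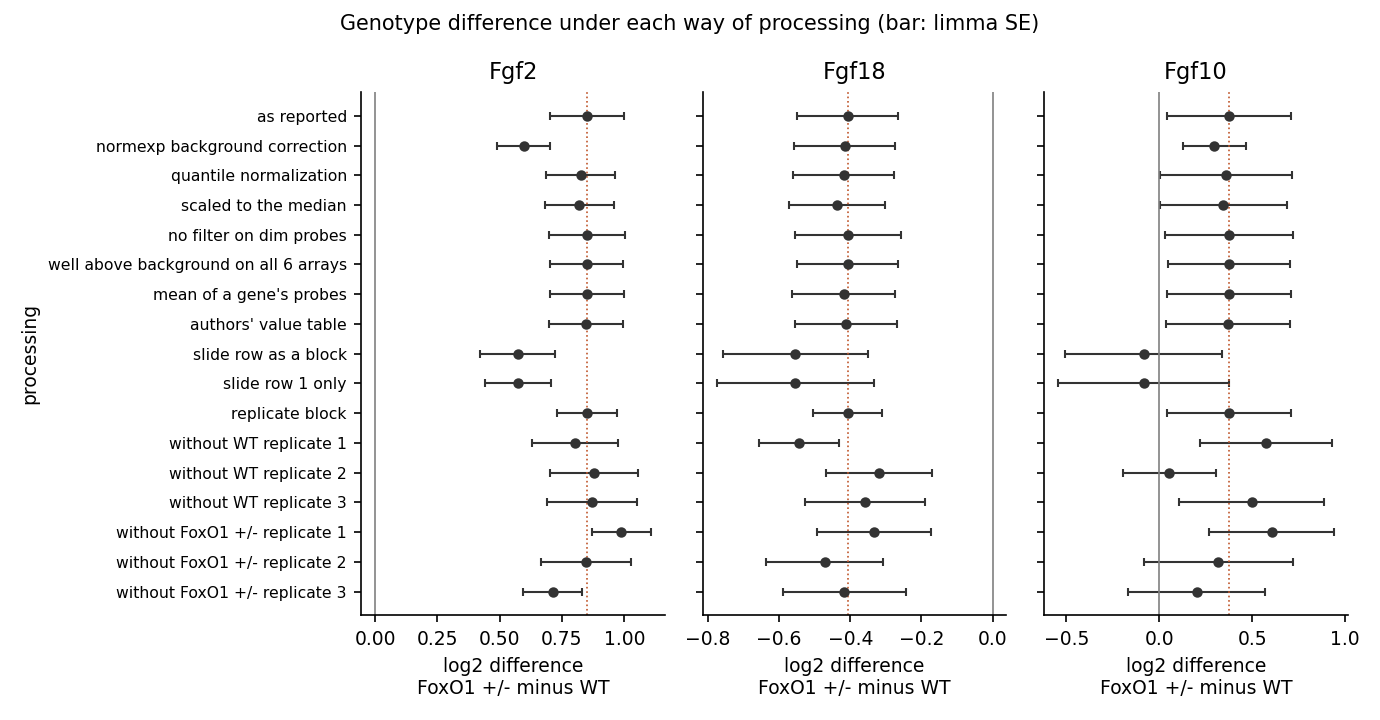
Log2 difference, FoxO1 +/- minus WT (x axes), of Fgf2, Fgf18 and Fgf10 under each way of processing and with each array left out (rows), with limma's SE as the bar and the reported value as a dotted line. Fgf2 stays between 0.57 and 0.99 and Fgf18 between -0.55 and -0.32, whereas Fgf10 runs from -0.084 to 0.61.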

How the data were processed

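The authors deposited 6 scanner files of spot intensity on a linear scale, made with Agilent Feature Extraction 10.7.1.1 per the file headers (9.1 per the submitters' processing notes). Their processed signal is background-subtracted and detrended within an array, not scaled between arrays. The authors' value table holds it rounded, within 0.5% at every non-control spot, with column medians of 82.4 to 112. Processed intensity was converted to log2, unflagged spots were averaged per probe, and each array's 75th percentile was subtracted. Probes well above background on all 3 arrays of a genotype were kept. The brightest probe stood for a gene. Symbols came from RefSeq accessions (GRCm38.p6 table), which named 26582 of 55681 probes. The array design is annotated on mm9.

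The genotypes were compared with limma 3.58.1 (lmFit, eBayes, two-sided, R 4.3.3), adjusted by Benjamini-Hochberg over 16411 genes or 37902 probes. The number of arrays limits the precision. The series text speaks of 3 independent experiments, and nothing more says how the samples are separate, so the spread behind a p-value may be partly technical. Tested on simulated data for 16411 genes of this comparison, 74% of 100 genes changed 2-fold and 96% of 100 changed 4-fold were called, with 18 false calls. The simulated noise was independent between genes and arrays and held no slide effects. These shares check the code and are not the power of the real comparison. Members and lists were chosen with earlier results of these data known. Named pathway genes are the 3 with the smallest p of each list. Alternatives were normexp (offset 50, on median spot intensity because the files hold no mean), quantile and median scaling, other filters and probe rules, slide row, replicate blocks and leaving out arrays.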

Additional observations from a re-analysis of the deposited data

How the results depend on the processing

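No member passed an adjusted p of 0.05 in limma under any of 16 alternatives, where the smallest adjusted p was 0.217, for Fgf2 without WT replicate 2. Of 160 such values 6 changed sign: Fgf10 (-0.084) and Fgf22 (-0.050) with slide row as a block and within slide row 1, Fgf1 (0.058) without WT replicate 3 and Fgfr4 (-0.020) without FoxO1 +/- replicate 1. Of the named pathway genes, Fgf23 (0.051) and Hs2st1 (-0.060) changed sign with slide row as a block and within row 1, Ndst1 (0.040) with the mean of a gene's probes and Nudt6 (-0.0036) without WT replicate 2. With single arrays left out, Fgf1 ran from -0.27 to 0.058, Fgfr4 from -0.020 to 0.19 and Nudt6 from -0.0036 to 0.068. The cause was not tested. Fgf2 kept its direction throughout, at 0.60 with normexp, and its unadjusted limma p was 0.00036 to 0.0119 under the 16 alternatives. The 2 genes with an unadjusted p under 0.05 became 1 within slide row 1 (Fgf2), 3 with slide row as a block (with Fgfr4) or the mean of probes (with Fgfr2), and 1 to 4 with single arrays left out, and the 3 with separate groups became 2 to 4 under the other settings and 3 to 7 with single arrays left out (7 without WT replicate 2). Over all genes, the count past the adjusted threshold was 1, against 0 with normexp, 2 with quantile normalization, 5 with median scaling, 3 without a filter, 0 with the stricter filter, 7 with slide row as a block, 4 within row 1, and 0 to 28 with single arrays left out (28 without WT replicate 2). The count at an unadjusted p of 0.05 was 1026, and 478 with slide row as a block, 510 within row 1, 1223 with normexp and 678 to 1493 with single arrays left out (678 without FoxO1 +/- replicate 2, 1493 without WT replicate 2). With the replicate number as a block 0 genes passed and the Fgf2 difference was 0.85. Deviations of same-numbered arrays correlated at -0.068, -0.14 and -0.30, and those of differently numbered arrays at -0.12 to 0.24. With 3 arrays per genotype these values cannot decide whether the numbers pair the samples. Dim probes such as those of Fgf2 and Fgf10 limit what these arrays can show.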

Other observations

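Of the other FGF family genes, Fgf5, chosen after its values were seen, varied most between wounds of 1 genotype. Fgf5, which ends the growth phase of the hair cycle, was at -2.52, -4.22 and -4.27 in WT and -4.32, -2.65 and -3.45 in FoxO1 +/- wounds. Its log2 difference of 0.20 (SE 0.61) was below the spread between wounds. Fgf3, Fgf12, Fgf16 and Fgf20 were not well above background on any array, and neither was Kl, the co-receptor of endocrine FGFs. Fgf6 was well above background on 2 arrays of each genotype. Klb, the co-receptor of Fgf21 and Fgf15, was likewise chosen after its values were seen. It was at -2.92, -3.70 and -3.74 in WT and -3.32, -2.49 and -2.51 in FoxO1 +/- wounds. The genotypes overlapped, and differed by 0.68 on the log2 scale (SE 0.32, adjusted p 0.826 in limma).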
